A study of Mus musculus with 30 samples.

Results

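The comparison described here is that of CGR8 mouse embryonic stem cells after 48 h of cycloheximide with the same cells at 0 h. Its members were chosen by their sample labels alone, 3 libraries at 48 h (replicates A, B and C) and 3 at 0 h, which makes 6 of the 30 libraries of the series, and all genes were tested. The series asked how the transcriptomes of a fibroblast line, NIH/3T3, and of CGR8 respond to inhibition of protein synthesis, with RNA taken at 0, 1, 2, 5 and 48 h. CGR8 is an established line derived from mouse embryos, kept in N2B27 medium to which 2i and LIF were added. All groups, controls included, carried the genotype ROSA26 SLT knock-in, and the treatment label of every library, 0 h included, gives cycloheximide at 0.1 µg/mL, so the 0 h libraries are read as the start of treatment. Nothing in the labels says whether the 3 replicates of a group were separate cultures, so the p-values measure the spread between libraries, which may be technical. For 48 h against 0 h, that spread was estimated over all 15 CGR8 libraries, those at 1, 2 and 5 h included.

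Cycloheximide binds the ribosome and blocks the elongation step of translation, so that proteins with short half-lives are depleted first. In 2i and LIF, inhibitors of MEK and GSK3 together with the STAT3-activating cytokine LIF hold mouse embryonic stem cells in the naive state, which is run by factors such as Pou5f1, Sox2, Nanog and Klf4. Cells that leave it pass through a formative state marked by Otx2, Lef1, Zic2 and Dnmt3b. Translation is also coupled to stress pathways: ATF4 drives amino-acid synthesis genes, XBP1 and ATF6 drive chaperones of the endoplasmic reticulum (ER), NRF2 drives antioxidant genes, SREBP factors drive sterol and fatty-acid synthesis, and p53 drives genes of cell-cycle arrest and apoptosis.

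The 6 libraries held 23.3 to 29.9 M counts. In bulk RNA, fewer cells of a type and less RNA per cell cannot be told apart, and levels are relative to the library total. Levels are given in CPM, counts brought to a common library total with TMM factors, for replicates A, B and C in that order or as mean ± SD with n = 3. Changes are log2 fold changes of 48 h against 0 h with their standard error (SE), from edgeR's quasi-likelihood test with Benjamini-Hochberg adjustment, and a gene is called at an adjusted p under 0.05. The 0 h replicate B stood apart from its group: its log2 CPM correlated across genes with A at 0.9866 and with C at 0.9856, whereas A and C correlated at 0.9952. For that reason the calls made without that library are given beside each list where they differ. The 48 h replicate A lay nearer to 0 h than B and C for a number of the genes below, and the spread of those genes at 48 h is wide. The stem cell label was met in all 6 libraries: summed levels of 16 naive factors were 6142 to 6241 CPM at 0 h and 6756 to 7383 CPM at 48 h. Where markers are counted against 1 CPM, here and below, the level is by library total alone, and none of the 16 was below it throughout. Of 12 fibroblast markers, 9 were below 1 CPM in all 6 libraries, 3 of them at 0 counts, and the rest of that list's sum came mostly from Fn1 and Vim.

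After 48 h, 4429 of 15933 genes tested were called (27.8%), 1937 of them higher (12.2%) and 2492 lower (15.6%). A change of at least 2-fold was fitted for 1387 called genes (8.71%), 541 higher and 846 lower. The 3 libraries of each group did not overlap for 7765 genes (48.7%), among them 4369 of those called. Fitted without the 0 h replicate B, the comparison called 3326 genes, 1216 of which had a change of 2-fold or more. The median log2 change of all genes tested was -0.003, and the list medians below are to be read beside it. Counts of list members called are likewise to be read beside the 12.2% higher and 15.6% lower of all genes. The members of each list that are named below and lie outside the naming rule were chosen after their values were seen.

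**Figure D1:**
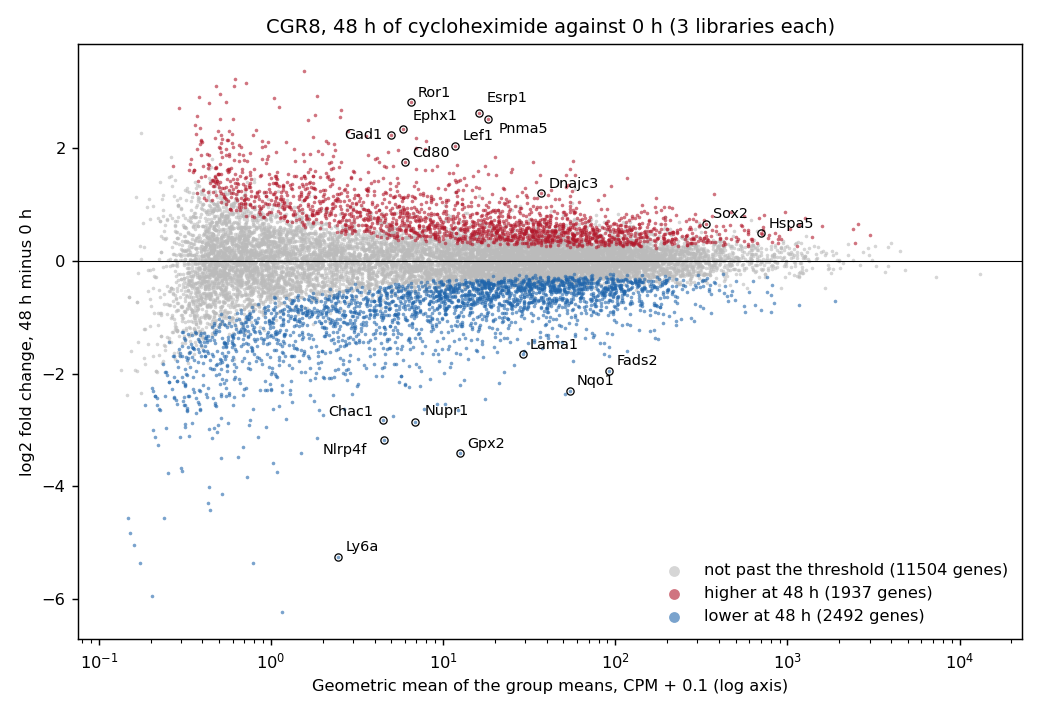
Fitted log2 fold change of 48 h against 0 h (vertical axis) against the geometric mean of the group means in CPM + 0.1 (horizontal log axis) for the 15933 genes tested in CGR8. Red points are the 1937 genes called higher, blue points the 2492 called lower and grey points the 11504 not past the threshold; the circled genes are described in the text, and Ly6a, at -5.25, lies farthest from 0 among them.

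The largest rises included those of a receptor kinase, a splicing regulator and a detoxifying enzyme. The receptor tyrosine kinase Ror1, which binds Wnt5a, was at 2.54, 2.34 and 2.26 CPM at 0 h and 10.4, 19.6 and 20.8 CPM at 48 h. Its groups did not overlap, and replicate A was the lowest at 48 h; the fitted change was 2.82 ± 0.270 (SE; adjusted p = 2.22e-06, edgeR). Esrp1, a splicing regulator of epithelial cells, was at 6.10, 6.46 and 6.91 CPM at 0 h and 27.4, 45.2 and 47.3 CPM at 48 h, a change of 2.62 ± 0.206 (SE; adjusted p = 3.89e-07, edgeR). Pnma5, a paraneoplastic antigen family gene related to retrotransposon Gag, was at 8.25, 5.97 and 8.33 CPM at 0 h and 39.1, 46.9 and 44.0 CPM at 48 h, with a change of 2.52 ± 0.221 (SE; adjusted p = 1.00e-06, edgeR). All 3 libraries at 48 h lay well above all 3 at 0 h for these genes. The detoxifying microsomal epoxide hydrolase Ephx1 was at 2.63, 2.75 and 2.22 CPM at 0 h and 13.03, 13.7 and 12.1 CPM at 48 h, a change of 2.35 ± 0.155 (SE; adjusted p = 1.47e-07, edgeR). Gad1, which makes the transmitter GABA from glutamate, was at 2.31, 1.82 and 2.55 CPM at 0 h and 10.8, 9.44 and 11.3 CPM at 48 h, a change of 2.23 ± 0.163 (SE; adjusted p = 2.73e-07, edgeR). Both were even across the replicates of each group. The other named genes of this size were Efnb2, a ligand of Eph receptors, with a log2 change of 2.13, Tgfbr3, a co-receptor of TGF-beta, with 2.01, Slc27a2, a fatty-acid transporter, with 1.85, and Sfmbt2, a Polycomb-associated gene, with 1.78. Tuba3a rose by 1.76, but reads may be split with its near-identical tubulin copies. Esrp1 belongs to a list of 18 epithelial genes, of which 4 were called higher and 4 lower, with a median of -0.151. Without the 0 h replicate B, 4 and 2 were called. The lowest change in that list was -1.99, of the keratin gene Krt8.

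The largest fall among the genes named by the rule was that of Ly6a, which encodes the surface antigen Sca-1. Its levels were 11.8, 17.0 and 11.3 CPM at 0 h and 0.147, 0.485 and 0.412 CPM at 48 h, which rest on 4 to 13 counts per library at 48 h, and the change was -5.25 ± 0.324 (SE; adjusted p = 5.80e-08, edgeR). Gpx2, a selenium-dependent glutathione peroxidase, was at 36.4, 47.6 and 37.0 CPM at 0 h and 4.26, 3.02 and 4.12 CPM at 48 h, and its change was -3.41 ± 0.202 (SE; adjusted p = 5.26e-08, edgeR). The groups of both genes were far apart, and the 0 h replicate B was the highest library in each. Nlrp4f, an oocyte-type member of the NLRP family with close paralogs that may share its reads, was at 13.7, 12.4 and 13.5 CPM at 0 h and 1.76, 0.970 and 1.65 CPM at 48 h, a change of -3.18 ± 0.189 (SE; adjusted p = 5.26e-08, edgeR). Ak4, an adenylate kinase of mitochondria, was at 119, 106 and 122 CPM at 0 h and 23.8, 22.1 and 21.4 CPM at 48 h, a change of -2.36 ± 0.101 (SE; adjusted p = 6.34e-10, edgeR). Other genes named for the size of their fall were Ggt1, a glutathione-degrading transferase, at -2.75, Cbr3, a carbonyl reductase, at -2.53, and Khdc3, a maternal-effect gene, at -2.21. Fabp3, a fatty-acid binding protein, at -2.64, and Snn at -2.23 overlap exons of neighbouring genes, and whether the counting used strand is not given in the sources used here.

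**Figure D2:**
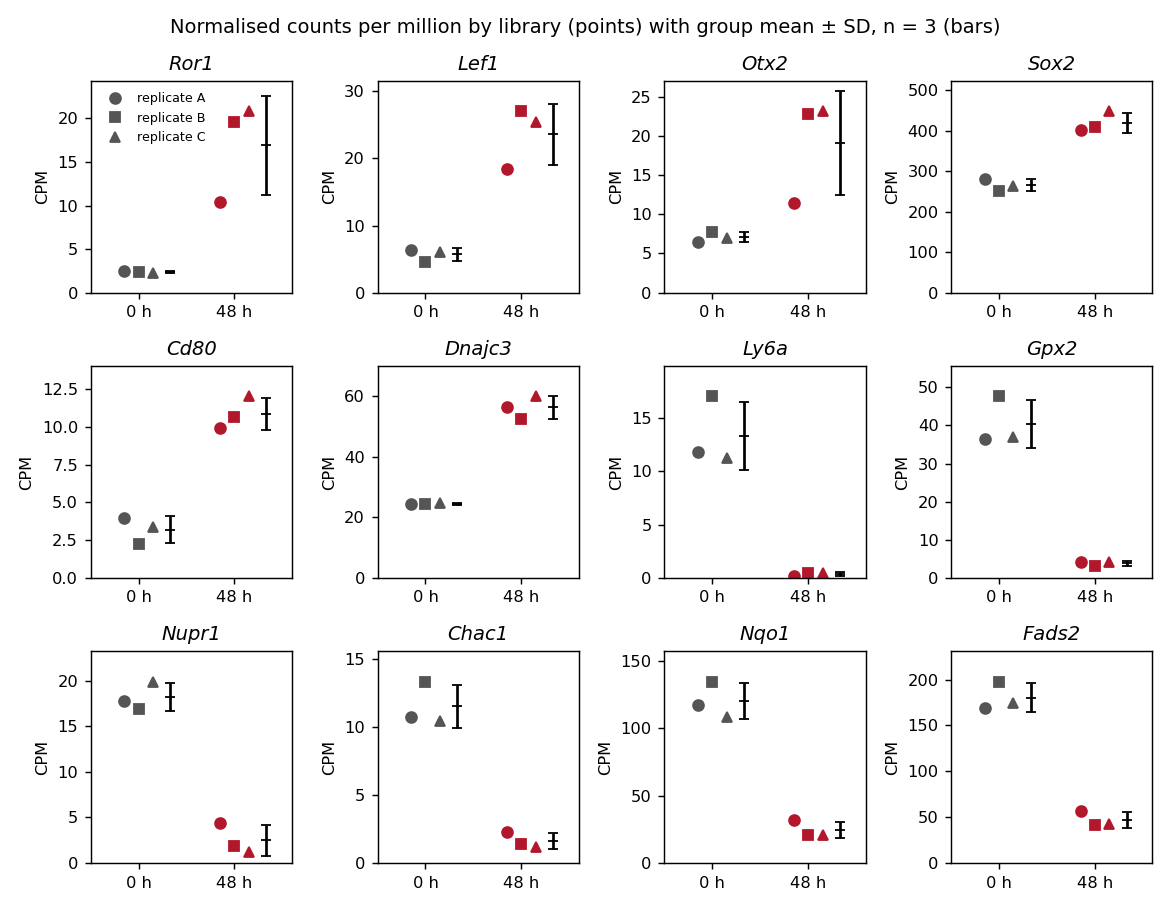
Level in CPM (vertical axes, each from 0) of 12 genes in the 3 libraries at 0 h (grey) and the 3 at 48 h (red); symbols mark replicates A, B and C and bars the group mean ± SD (n = 3). In each panel the groups do not overlap, and for Ror1, Lef1 and Otx2 replicate A is the lowest library at 48 h.

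In absolute terms the largest rises were those of abundant RNAs. Hnrnpu, a nuclear matrix and RNA-binding protein, rose from 1276 ± 92.5 to 1952 ± 143 CPM, a log2 change of 0.61 ± 0.102 (SE; adjusted p = 0.000337, edgeR). Hnrnpa2b1, another nuclear RNA-binding protein, rose from 968 ± 64.2 to 1642 ± 104 CPM, a change of 0.76 ± 0.0923 (SE; adjusted p = 2.10e-05, edgeR). Trim28, a corepressor of retroelements, rose from 2560 ± 173 to 3546 ± 118 CPM. The mitochondrially encoded mt-Co1 went from 2031 ± 209 to 3216 ± 448 CPM, with an adjusted p of 0.0172 by edgeR that became 0.0616 when 0 h replicate B was left out and 0.0883 when 48 h replicate C was. Nedd4, a ubiquitin ligase, likewise lost its call without either library, at adjusted p values of 0.0546 and 0.0579. The largest absolute fall was that of Eif4g2, a translation initiation factor, which fell from 2410 ± 105 to 1482 ± 124 CPM. Aldoa, the glycolytic aldolase, fell from 1097 ± 257 to 585 ± 38.8 CPM, and the alanyl-tRNA synthetase gene Aars fell from 948 ± 110.0 to 517 ± 55.9 CPM.

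The naive pluripotency network stayed high after 48 h. Of 16 naive factors, 4 were called higher, 2 lower and 10 neither, with a list median of 0.02; with any 1 library left out, 4 were called higher, and 1 was lower without any one of the 0 h replicates or the 48 h replicate C. Sox2 was at 281, 251 and 265 CPM at 0 h and 401, 410.5 and 448 CPM at 48 h, so that every treated library lay above every control, and the change was 0.66 ± 0.0901 (SE; adjusted p = 5.86e-05, edgeR). Zfp42, also known as Rex1, rose from 936 ± 28.3 to 1455 ± 35.7 CPM, a change of 0.64 ± 0.0920 (SE; adjusted p = 0.000101, edgeR). Klf4, a target of LIF and STAT3, rose from 248 ± 4.51 to 384 ± 10.6 CPM, a change of 0.63 ± 0.100 (SE; adjusted p = 0.000221, edgeR). Nanog rose from 669 ± 35.4 to 883 ± 37.8 CPM, a change of 0.40 ± 0.107 (SE; adjusted p = 0.0106, edgeR). Pou5f1, which encodes Oct4, was at 607, 669.7 and 575 CPM at 0 h and 706, 790.5 and 665 CPM at 48 h, and its change of 0.22 ± 0.150 (SE; adjusted p = 0.288, edgeR) did not pass the test and its groups overlapped. Esrrb at 0.078 and Tfcp2l1 at -0.48 did not pass either, with adjusted p of 0.709 and 0.0724 by edgeR. Tbx3, a T-box factor of the naive state, fell from 192 ± 4.20 to 134 ± 22.7 CPM, a change of -0.52 ± 0.122 (SE; adjusted p = 0.00499, edgeR). Gbx2 fell by 0.47 with an adjusted p of 0.0256 by edgeR, a call that was lost in 4 of the 6 fits that left out 1 library.

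Wider stem cell markers gave 4 of 16 higher and 1 lower (0 lower without the 0 h replicate B or the 48 h replicate C), and a median of 0.032. Epcam, an epithelial adhesion molecule of stem cells, rose from 32.2 ± 0.914 to 56.0 ± 6.76 CPM, a change of 0.80 ± 0.109 (SE; adjusted p = 6.27e-05, edgeR). L1td1, an RNA-binding protein derived from a LINE-1 element, rose by 0.48. Dppa5a fell from 922 ± 129 to 627 ± 84.6 CPM, with an adjusted p of 0.0211 by edgeR, which was 0.104 when 0 h replicate B was left out and 0.107 when 48 h replicate C was. Of 14 genes of the DNA methylation machinery, 2 were called higher, Dnmt3b and the imprint-protecting zinc finger gene Zfp57, which rose from 343 ± 78.5 to 525 ± 22.7 CPM. The maintenance factor Uhrf1 was called lower at -0.29 with an adjusted p of 0.0491 by edgeR, a call that 9 of the 14 other settings lost. The shares in this list, 14.3% higher and 7.14% lower, stand beside 12.2% and 15.6% of all genes. When any 1 of the 6 libraries was left out, 2 or 3 of these genes were higher and 0 lower. Dnmt3a, the other de novo methyltransferase, had a fitted change of -0.00074 and an adjusted p of 0.996 by edgeR.

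Most called formative markers rose. Of 17 tested, 8 were called higher and 3 lower, with a median of 0.443. The same numbers were called without the 0 h replicate B. With any 1 library left out, 6 to 8 were higher and 3 lower. Other members stayed low: by library total, Fgf5 was at 0.0732 to 0.392 CPM over the 6 libraries. Pou3f1 was at 1.33 to 2.03 CPM and Fgf15 at 0.215 to 1.17 CPM. Lef1, a transcription factor of the Wnt pathway, was at 6.39, 4.60 and 6.07 CPM at 0 h and 18.5, 27.0 and 25.4 CPM at 48 h, a change of 2.05 ± 0.174 (SE; adjusted p = 7.74e-07, edgeR). Grhl2, which opens enhancers of epithelial genes as the naive state is left, was at 3.89, 3.27 and 4.40 CPM at 0 h and 9.47, 17.1 and 19.3 CPM at 48 h, a change of 1.99 ± 0.227 (SE; adjusted p = 1.23e-05, edgeR). Otx2, a homeodomain factor of the formative state, was at 6.46, 7.79 and 6.99 CPM at 0 h and 11.4, 22.8 and 23.1 CPM at 48 h, a change of 1.43 ± 0.204 (SE; adjusted p = 8.48e-05, edgeR). In all of them the control and treated libraries did not overlap, and replicate A was the lowest at 48 h. Zic2, a zinc finger factor, was at 73.1, 70.5 and 67.5 CPM at 0 h and 154, 212 and 218 CPM at 48 h, a change of 1.47 ± 0.126 (SE; adjusted p = 8.21e-07, edgeR). Dnmt3b, the de novo methyltransferase of this transition, was at 243, 259 and 239.7 CPM at 0 h and 459, 607 and 619.8 CPM at 48 h, a change of 1.19 ± 0.123 (SE; adjusted p = 5.03e-06, edgeR). Zic5 was also called higher, at 0.81. The mesenchymal cadherin Cdh2 went the other way, at 7.93, 7.99 and 8.38 CPM at 0 h and 2.68, 2.76 and 2.92 CPM at 48 h, a change of -1.54 ± 0.125 (SE; adjusted p = 4.86e-07, edgeR). Tcf15 and Foxd3, both transcription factors of the early exit from naive pluripotency, fell by 1.43 and 1.06. Summed over the 17 tested members of the list, the level was 599.5 to 626.8 CPM at 0 h and 941.9 to 1235 CPM at 48 h. Much of that rise was in Dnmt3b, whose mean went from 247.2 to 562 CPM, and Zic2, from 70.35 to 194.5 CPM.

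The lineage lists held few markers at levels that could be tested. Of 12 primitive endoderm markers tested, 5 were called lower, 1 higher and 6 neither, and their sum went from a range of 326.6 to 410.2 CPM to one of 164.5 to 170 CPM. Lama1, a laminin chain of basement membranes, was at 54.2, 45.7 and 53.7 CPM at 0 h and 21.7, 13.2 and 13.8 CPM at 48 h, a change of -1.66 ± 0.194 (SE; adjusted p = 1.57e-05, edgeR). Sparc, a secreted matrix protein, was at 223, 312 and 232 CPM at 0 h and 112, 109 and 109 CPM at 48 h, where the 3 treated libraries lay together and the controls spread widely, and its change was -1.22 ± 0.143 (SE; adjusted p = 1.57e-05, edgeR). Of the defining factors of this lineage, Gata6, Sox17 and Foxa2 stayed below 1 CPM in all 6 libraries, while Gata4 rose from 1.21 ± 0.124 to 3.43 ± 0.370 CPM, a change of 1.5 ± 0.226 (SE; adjusted p = 0.000142, edgeR). Of 6 mesoderm and primitive streak markers tested, 5 were called lower, T (Brachyury) at -2.08 among them, and their summed level went from 13.32 to 14.77 CPM at 0 h to 6.056 to 9.016 CPM. Without the 0 h replicate A or C or the 48 h replicate A or C, 3 were called lower, and leaving out either replicate B gave 4. Of 9 trophoblast markers tested, 4 were called lower and 3 higher, but 4 and 2 when any 1 library was left out. Their sum went from 114.4 to 117.8 CPM at 0 h to 98.15 to 102.5 CPM. Eomes, a T-box factor of trophoblast and early mesoderm, was at 22.9, 21.6 and 21.5 CPM at 0 h and 4.11, 4.37 and 2.84 CPM at 48 h, a change of -2.54 ± 0.156 (SE; adjusted p = 5.80e-08, edgeR). Cdx2, another trophoblast factor, fell from 5.5 ± 0.468 to 1.40 ± 0.498 CPM, whereas Cdh3, a cadherin, rose from 11.2 ± 0.793 to 22.2 ± 1.52 CPM. Of 7 neural markers tested, 4 were called higher and none lower, but 2 were higher without the 0 h replicate B or the 48 h replicate C, and 1 was lower without the 48 h replicate A. Their sum went from 181.1 to 215.4 CPM to 218.5 to 230 CPM. Ncam1, an adhesion molecule, rose from 28.4 ± 3.94 to 55.4 ± 1.57 CPM, a change of 0.96 ± 0.135 (SE; adjusted p = 7.28e-05, edgeR), and the intermediate filament gene Nes rose from 12.3 ± 0.987 to 20.3 ± 1.19 CPM. The part that cells of these lineages had in the changes was not tested.

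Signalling genes read by these states moved in both directions. Of 16 genes of LIF and STAT3 signalling, 7 were called lower and 1 higher (6 and 0 without the 0 h replicate B), with a median of -0.346, and 0 were higher without the 48 h replicate A or C either. The kinase Pim1, a STAT3 target, fell from 64.6 ± 4.06 to 28.4 ± 4.57 CPM, a change of -1.19 ± 0.131 (SE; adjusted p = 8.80e-06, edgeR). Jak1, which carries the signal from the LIF receptor and shares exon sequence with Raver2, fell from 48.5 ± 1.85 to 29.5 ± 3.52 CPM, and the feedback inhibitor Socs3 fell by 0.45 with an adjusted p of 0.0223 by edgeR. Of 15 ERK feedback genes, 4 were lower and 3 higher. The ERK phosphatase Dusp6 fell from 52.9 ± 2.17 to 29.6 ± 1.88 CPM and Dusp1, which shares exon sequence with Ergic1, fell from 22.3 ± 1.52 to 10.3 ± 2.37 CPM, whereas the ETS factor Etv5 rose by 0.48 and its relative Etv4 fell by 0.87. Among MYC family genes, Myc fell from 63.8 ± 1.01 to 25.8 ± 5.95 CPM, a change of -1.31 ± 0.138 (SE; adjusted p = 5.94e-06, edgeR), Mycl fell by 1.01, and Mycn rose from 139 ± 6.27 to 268 ± 51.0 CPM, a change of 0.95 ± 0.121 (SE; adjusted p = 3.13e-05, edgeR).

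Of 15 Wnt targets, 6 were lower and 2 higher (1 higher without any one of the 0 h replicates or the 48 h replicate A). Cdx1, a direct Wnt target, fell from 44.4 ± 7.51 to 9.91 ± 2.73 CPM, a change of -2.16 ± 0.188 (SE; adjusted p = 9.16e-07, edgeR), while Lef1 rose as given above. Of 14 feedback genes of BMP and TGF-beta signalling, 7 were lower and 2 higher (5 and 2). Lefty1, a secreted inhibitor of Nodal, rose from 2.09 ± 0.239 to 7.31 ± 2.56 CPM, while Bambi, a pseudoreceptor, fell from 11.9 ± 1.65 to 7.59 ± 0.481 CPM. The Notch list had 6 of 14 members higher and 2 lower (5 and 2 without the 0 h replicate B). Its ligand gene Dll1 rose from 0.432 ± 0.0866 to 4.49 ± 1.25 CPM, a change of 3.37 ± 0.264 (SE; adjusted p = 3.89e-07, edgeR), and the ligand gene Jag2 rose from 7.83 ± 1.58 to 21.9 ± 0.759 CPM. The Notch effector Hes1 fell from 28.9 ± 3.24 to 12.6 ± 5.45 CPM.

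Chaperones and folding enzymes of the ER rose. Of 25 genes tested, 17 were called higher and 0 lower, with a list median of 0.496. Without the 0 h replicate B, 15 and 0 were called. With any 1 library left out, 13 to 15 were higher and 0 lower. XBP1 and ATF6 act through the ER stress response element, CCAAT and CCACG separated by 9 bases (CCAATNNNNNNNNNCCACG). It was searched on both strands in RefSeq promoter windows (GRCm38.p6, 250 bases before to 50 after each gene's start). It was found for 9 of the 21 list genes with a window, 8 of them called higher, and for 37 of 27025 genes in all (0.137%). The windows of 6 of those 8 are shown, to let the spacing and orientation of the element be compared between genes; capitals mark the element, in either orientation.
Dnajc3 (chr14:118937797-118937875, plus strand): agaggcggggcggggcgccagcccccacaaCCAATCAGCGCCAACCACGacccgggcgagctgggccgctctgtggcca
Derl3 (chr10:75893212-75893290, plus strand): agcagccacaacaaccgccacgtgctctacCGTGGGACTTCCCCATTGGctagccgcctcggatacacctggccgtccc
Hsp90b1 (chr10:86705503-86705581, minus strand): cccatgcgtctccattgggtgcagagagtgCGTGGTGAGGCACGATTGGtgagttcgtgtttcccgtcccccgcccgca
Pdia6 (chr12:17266461-17266539, plus strand): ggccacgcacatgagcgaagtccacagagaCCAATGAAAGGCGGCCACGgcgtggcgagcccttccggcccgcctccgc
Creld2 (chr15:88819490-88819568, plus strand): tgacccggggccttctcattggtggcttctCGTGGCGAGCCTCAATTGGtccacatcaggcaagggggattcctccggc
Hspa5 (chr2:34771995-34772073, plus strand): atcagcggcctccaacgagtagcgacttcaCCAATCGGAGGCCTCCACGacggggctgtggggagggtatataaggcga
These matches are a description of the letters in the windows, and binding was not measured.

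Dnajc3, an inhibitor of the eIF2-alpha kinases that also acts as an ER co-chaperone, had the largest change of the ER list. It was at 24.2, 24.3 and 24.8 CPM at 0 h and 56.5, 52.4 and 59.9 CPM at 48 h, with tight replicates and no overlap, a change of 1.20 ± 0.0936 (SE; adjusted p = 3.89e-07, edgeR). Hspa5 (BiP), the main ER Hsp70, was at 555, 602 and 619.5 CPM at 0 h and 812, 892 and 802 CPM at 48 h, a change of 0.50 ± 0.0978 (SE; adjusted p = 0.0013, edgeR). The ER Hsp90, Hsp90b1, rose from 422 ± 44.9 to 733 ± 20.4 CPM, a change of 0.79 ± 0.0912 (SE; adjusted p = 1.25e-05, edgeR). Protein disulfide isomerases rose with them, Pdia4 from 217 ± 19.9 to 387 ± 13.2 CPM and Pdia6 from 255 ± 24.2 to 425 ± 25.7 CPM. Xbp1 itself rose by 0.70 and Derl3, of the ER degradation machinery, by 1.03. The lectin chaperone Calr had a change of 0.44 with an adjusted p of 0.0676 by edgeR, and Herpud1, of ER-associated degradation, one of -0.34 with 0.0886. Cytosolic chaperones gave another count: of 19 HSF1 targets, 2 were higher and 0 lower, with a median of 0.009, and 1 was higher when any 1 library but the 48 h replicate A was left out, 3 when that one was.

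p53 targets were called higher in 20 of 29 cases and lower in 3, against 12.2% and 15.6% of all genes. The list median was 0.66, and 18 and 3 were called without the 0 h replicate B. Cd80, a ligand of T-cell costimulation, was at 3.98, 2.22 and 3.39 CPM at 0 h and 9.91, 10.6 and 12.0 CPM at 48 h, a change of 1.75 ± 0.226 (SE; adjusted p = 3.63e-05, edgeR). The death-domain receptor gene Eda2r was at 35.2, 23.4 and 33.9 CPM at 0 h and 89.5, 92.0 and 107 CPM at 48 h, a change of 1.64 ± 0.176 (SE; adjusted p = 6.64e-06, edgeR). Pmaip1 (Noxa), a BH3-only killer protein, was at 3.31, 2.18 and 4.36 CPM at 0 h and 4.99, 9.67 and 10.1 CPM at 48 h, a change of 1.33 ± 0.304 (SE; adjusted p = 0.00385, edgeR). For all of them the groups did not overlap, though narrowly for Pmaip1, and the 0 h replicate B was the lowest library. Btg2, an antiproliferative gene, rose from 18.8 ± 1.72 to 44.0 ± 2.14 CPM, a change of 1.23 ± 0.120 (SE; adjusted p = 2.82e-06, edgeR). Ccng1, a cyclin G gene, rose from 146 ± 6.34 to 285 ± 11.9 CPM, a change of 0.96 ± 0.118 (SE; adjusted p = 2.29e-05, edgeR). Mdm2, the ubiquitin ligase of p53, rose from 85.5 ± 5.43 to 134 ± 4.24 CPM, a change of 0.65 ± 0.0898 (SE; adjusted p = 7.00e-05, edgeR). The cell-cycle inhibitor Cdkn1a (p21) rose from 65.0 ± 7.36 to 90.7 ± 6.71 CPM, a change of 0.48 ± 0.108 (SE; adjusted p = 0.00342, edgeR). Psrc1, Gtse1 and Ckap2, all of which act on microtubules in mitosis, rose by 1.12, 0.71 and 0.86. The 3 members called lower were the stress cytokine Gdf15 by 0.94, Sesn1, an inhibitor of mTORC1, by 0.75, and the fructose bisphosphatase Tigar by 0.49. Bax had a change of 0.25, with an adjusted p of 0.215 by edgeR.

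Most called BCL2 family genes fell. Of 15 tested, 8 were lower and 2 higher, the latter being Pmaip1 and Bbc3 (Puma), at 0.51 with an adjusted p of 0.0318 by edgeR; 7 and 1 were called without the 0 h replicate B. The call of Bbc3 was also lost when the 0 h replicate C, or the 48 h replicate A or B, was left out, each of which left 1 member higher. The pore-forming Bak1 fell from 101 ± 20.9 to 54.7 ± 1.61 CPM and its relative Bok fell from 10.7 ± 1.10 to 5.61 ± 0.440 CPM. Both protective and killer members fell, Bcl2l1 (Bcl-xL) by 0.75, Bid by 0.74 and Bcl2l11 (Bim) by 0.65. The short-lived protective Mcl1 had a change of 0.073, with an adjusted p of 0.553 by edgeR.

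ATF4 targets and genes of amino-acid synthesis fell. Of 37 tested, 24 were called lower and 2 higher, 21 and 2 without the 0 h replicate B, with a list median of -0.80. ATF4 pairs with CEBP factors on the element TGATGNAA, which was searched on both strands of the same promoter windows. It was present for 10 of 33 list genes with a window, 7 of them called in either direction, and for 4.51% of 27025 genes. The windows of 4 genes that fell are shown, with the element in capitals.
Chac1 (chr2:119351019-119351086, plus strand): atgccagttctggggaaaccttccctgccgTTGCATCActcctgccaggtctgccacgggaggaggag
Nupr1 (chr7:126625543-126625610, minus strand): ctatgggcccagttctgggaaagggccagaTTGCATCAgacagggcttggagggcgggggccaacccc
Vldlr (chr19:27216790-27216857, plus strand): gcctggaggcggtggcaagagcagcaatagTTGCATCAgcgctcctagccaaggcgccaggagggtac
Asns (chr6:7693210-7693262, minus strand): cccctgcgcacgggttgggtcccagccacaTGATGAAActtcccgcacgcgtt
The same element was found in the window of Slc7a11, the cystine transporter, whose fitted change of -0.53 did not pass the test (adjusted p = 0.0825, edgeR).

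Nupr1, a small stress-induced chromatin protein, was at 17.8, 16.9 and 19.9 CPM at 0 h and 4.40, 1.83 and 1.24 CPM at 48 h, a change of -2.85 ± 0.280 (SE; adjusted p = 2.91e-06, edgeR). Chac1, which degrades glutathione, was at 10.7, 13.3 and 10.4 CPM at 0 h and 2.27, 1.42 and 1.15 CPM at 48 h, a change of -2.82 ± 0.314 (SE; adjusted p = 9.32e-06, edgeR). Trib3, a pseudokinase induced by ATF4, fell from 40.5 ± 5.41 to 7.38 ± 3.19 CPM, a change of -2.45 ± 0.279 (SE; adjusted p = 1.16e-05, edgeR). In these the treated libraries were all below the controls, and the 48 h replicate A was the highest of its group. Of 23 amino-acid transporters, 8 were lower, 4 higher and 11 neither (7 lower and 4 higher without the 0 h replicate B), and those that fell included Slc1a4 from 19 ± 1.28 to 3.06 ± 0.875 CPM, Slc7a1 from 202 ± 2.40 to 66.8 ± 18.3 CPM and Slc7a5 from 498 ± 57.6 to 263 ± 10.7 CPM. The serine and one-carbon enzymes Phgdh, Psat1, Shmt2 and Mthfd2 fell by 0.60, 0.62, 0.71 and 1.32. Asns, the asparagine synthetase, fell from 742 ± 125 to 426 ± 34.0 CPM, and Atf4 itself fell from 143 ± 6.71 to 86.3 ± 8.61 CPM, a change of -0.73 ± 0.135 (SE; adjusted p = 0.000784, edgeR). The members that rose were Slc38a2, a transporter induced by amino-acid shortage, from 276 ± 23.2 to 479.8 ± 53.7 CPM, and Cebpg, a partner of ATF4, by 0.48. Ddit3 (CHOP) had a change of 0.11, with an adjusted p of 0.684 by edgeR. Of 19 cytosolic tRNA synthetases, 6 were lower and 2 higher (3 and 2 without the 0 h replicate B), Cars from 156 ± 0.501 to 96.0 ± 12.9 CPM among those that fell.

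**Figure D3:**
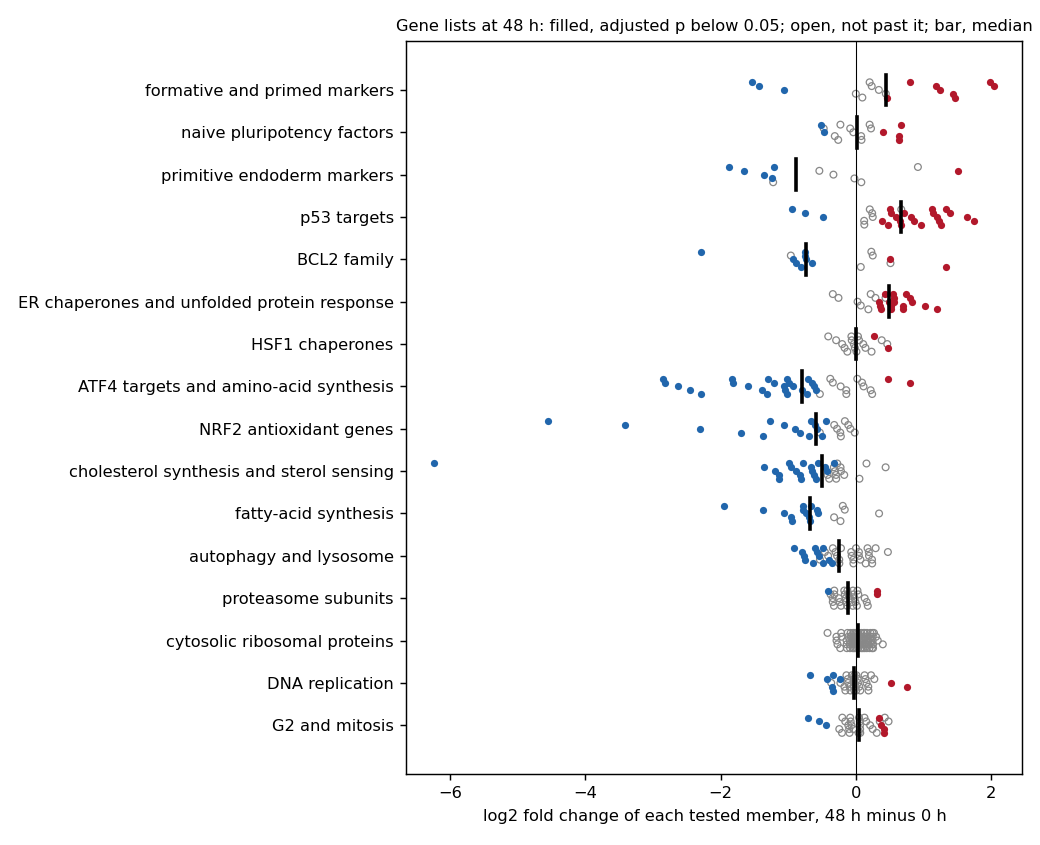
Fitted log2 fold change of 48 h against 0 h (horizontal axis) of each tested member of 16 gene lists (rows); filled points passed an adjusted p of 0.05 (red higher, blue lower), open points did not, and bars mark list medians. For points that rest on 3 counts or fewer in each 48 h library, Osgin1 at -4.56 among them, the fitted size is no measure of the fold; p53 targets and ER chaperones lie mostly right of 0, and ATF4, NRF2, sterol and fatty-acid genes mostly left.

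NRF2 targets fell: all 24 tested had a negative fitted change, as did 8010 of all 15933 genes, and 15 were called lower, 14 without the 0 h replicate B. The list median was -0.589, or -0.569 without Osgin1, which had 3 counts or fewer in each 48 h library. Nqo1, a quinone reductase and the standard NRF2 readout, was at 117, 135 and 109 CPM at 0 h and 31.5, 20.8 and 20.8 CPM at 48 h, a change of -2.30 ± 0.181 (SE; adjusted p = 3.93e-07, edgeR). The 0 h replicate B was the highest library, and no treated library came near the controls. Srxn1, which repairs peroxiredoxins, fell from 30.6 ± 2.43 to 9.42 ± 3.44 CPM, a change of -1.70 ± 0.226 (SE; adjusted p = 4.72e-05, edgeR). Hmox1, the inducible haem oxygenase, fell from 114 ± 3.36 to 47.0 ± 4.07 CPM, a change of -1.27 ± 0.108 (SE; adjusted p = 7.45e-07, edgeR). Me1, the malic enzyme that makes NADPH, fell from 43.3 ± 1.72 to 16.6 ± 4.20 CPM, and Tkt, a transketolase, fell from 632 ± 66.1 to 393 ± 14.7 CPM. Nfe2l2, the gene of NRF2 itself, had a fitted change of -0.016, with an adjusted p of 0.933 by edgeR. The core antioxidant response element, TGACNNNGC on either strand, was in the windows of 8 of 19 list genes, 5 of them called lower, and of 14% of all 27025 genes.

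In the overlapping list of glutathione and detoxification genes, 9 of 20 were lower and 0 higher (7 and 0 without the 0 h replicate B). Cat, the catalase gene, fell from 148 ± 2.04 to 69.6 ± 14.5 CPM, a change of -1.08 ± 0.126 (SE; adjusted p = 1.37e-05, edgeR). Gstm2, a glutathione transferase with near-identical relatives, fell from 22.1 ± 3.81 to 7.02 ± 0.745 CPM. Gpx4, which protects lipids from peroxidation, fell by 0.81.

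Genes of lipid synthesis fell. Of 32 genes of cholesterol synthesis and sterol sensing, 19 were called lower and 0 higher, with a median of -0.502. Without the 0 h replicate B, 20 and 0 were called. With any 1 library left out, 16 to 20 were lower and 0 higher. Of 18 fatty-acid genes, 13 were lower and 0 higher (12 and 0 without the 0 h replicate B), with a median of -0.681. Fads2, the delta-6 desaturase, was at 169, 198 and 174 CPM at 0 h and 56.3, 41.4 and 42.7 CPM at 48 h, a change of -1.94 ± 0.152 (SE; adjusted p = 3.89e-07, edgeR). Its groups did not overlap, and the 48 h replicate A was the highest treated library. Scd1, the delta-9 desaturase, fell from 417 ± 3.09 to 199 ± 20.7 CPM, a change of -1.06 ± 0.130 (SE; adjusted p = 2.32e-05, edgeR). The carboxylase Acaca fell from 126 ± 3.97 to 65.0 ± 4.59 CPM, and Fasn, the fatty-acid synthase, fell from 1084 ± 38.9 to 649.8 ± 36.6 CPM. Dhcr7, the last enzyme of the Kandutsch-Russell branch of cholesterol synthesis, fell from 119 ± 14.1 to 46.5 ± 7.19 CPM, a change of -1.35 ± 0.140 (SE; adjusted p = 5.11e-06, edgeR). Insig1, which holds SREBP in the ER, fell by 1.14. The core sterol element CACCCCAC was in the windows of 2 of 22 sterol genes and of 3.3% of all genes.

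Catabolic and structural genes fell in smaller numbers. Of 37 autophagy and lysosome genes, 12 were lower and 0 higher, but 8 without the 0 h replicate B. The selective autophagy receptor Sqstm1 (p62) fell from 183 ± 22.6 to 107 ± 13.4 CPM, and Gabarapl1, of the ATG8 family, fell from 19.6 ± 0.792 to 10.3 ± 1.95 CPM. Of 22 glycolysis genes, 7 were lower and 0 higher (7 and 1 without that library), the isomerase gene Tpi1 from 208 ± 47.6 to 89.4 ± 6 CPM and the glucose transporter gene Slc2a1 from 158 ± 24.3 to 94.4 ± 5.37 CPM among them. Of 20 matrix genes, 8 were lower (7 without it), among them Nid1, a linker of basement membranes, which fell from 285 ± 11.5 to 109 ± 14.5 CPM, a change of -1.39 ± 0.188 (SE; adjusted p = 5.58e-05, edgeR).

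Genes of protein synthesis and proliferation are given beside the 27.8% of all genes called. None of 79 cytosolic ribosomal protein genes was called at 48 h in the edgeR fit, and 1 was without the 0 h replicate B; the list median was 0.036. Of 52 translation factors, 6 were higher and 5 lower (4 and 4 without that library); 2 were higher without the 0 h replicate A or the 48 h replicate C. Leaving out the 48 h replicate B gave 3 higher and 3 lower, and leaving out the 0 h replicate C or the 48 h replicate A gave 3 lower. Eif4ebp1, the repressor of cap-dependent initiation, fell from 389 ± 79.7 to 194 ± 24.6 CPM (adjusted p = 0.00108, edgeR). Of 40 ribosome biogenesis genes, 5 were higher and 0 lower, Nop58, a box C/D snoRNP protein, from 535 ± 39.5 to 701 ± 47.2 CPM among them, and 3 were higher without the 0 h replicate A or the 48 h replicate B. Of 32 proteasome genes, 2 were higher and 1 lower; 0 were higher without the 0 h replicate A or the 48 h replicate B or C, 1 without the 0 h replicate C, and 0 were lower when any 1 library but the 48 h replicate B was left out. Of 39 replication genes, 2 were higher and 6 lower, but 1 and 3 without the 0 h replicate B; 1 was higher also without the 0 h replicate A or the 48 h replicate A or C, 2 were lower without the 0 h replicate C or the 48 h replicate A. Leaving out the 48 h replicate B or C gave 3 lower. Of 32 genes of G2 and mitosis, 4 were higher and 3 lower (3 and 3). Cyclin genes were among the exceptions: Ccne1, which starts S phase, fell from 233 ± 26.7 to 125 ± 9.47 CPM, and Ccnb2, a mitotic cyclin, fell from 123 ± 9.19 to 75.3 ± 3.34 CPM.

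Earlier times share the 0 h libraries with this comparison, so each is given by its own values. The ribosomal protein list had a median change of 0.887 at 5 h and 0.036 at 48 h, and the proteasome list 0.685 and -0.119. For formative markers the medians were -0.626 at 5 h and 0.443 at 48 h, for ER chaperones -0.304 and 0.496, and for p53 targets -0.025 and 0.66. ATF4 targets were at -0.951 and -0.80, and fatty-acid genes at -0.532 and -0.681. A direct contrast of 48 h with 5 h, which does not use the 0 h libraries, called 9157 of 15933 genes (57.5%), 4602 higher at 48 h and 4555 lower. Ror1 was at 1.06 ± 0.509 CPM at 5 h, which rests on 11 to 31 counts per library. Its difference of 48 h from 5 h was 4.001 ± 0.303 (SE; adjusted p = 7.96e-08, edgeR). Lef1 was at 3.54 ± 0.720 CPM at 5 h, a difference of 2.73 ± 0.184 (SE; adjusted p = 3.38e-08, edgeR). Both had gone down by 5 h, Ror1 by 1.18 and Lef1 by 0.68, and were higher at 48 h than at 5 h. Chac1 was at 0.423 ± 0.275 CPM at 5 h, which rests on 5 to 15 counts per library. That was below its level at 48 h, with a difference of 1.97 ± 0.444 (SE; adjusted p = 0.00134, edgeR). Dnajc3 was at 21.8 ± 1.12 CPM at 5 h, a difference of 1.37 ± 0.0944 (SE; adjusted p = 3.75e-08, edgeR). Gpx2 was at 40.4 ± 9.31 CPM at 5 h, with a fitted change from 0 h of 0.0015, and the difference of 48 h from 5 h was -3.41 ± 0.202 (SE; adjusted p = 1.08e-08, edgeR). Fads2, at 93.3 ± 6.76 CPM at 5 h, lay between its 0 h and 48 h levels, a difference of -0.99 ± 0.149 (SE; adjusted p = 4.16e-05, edgeR). Cd80, at 5.92 ± 1.16 CPM at 5 h, also lay between them, with 0.87 ± 0.217 (SE; adjusted p = 0.00291, edgeR). Lama1 had reached 14.2 ± 2.25 CPM at 5 h, and its difference of 48 h from 5 h was 0.19 ± 0.196 (SE; adjusted p = 0.418, edgeR), which did not pass the test.

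**Figure D4:**
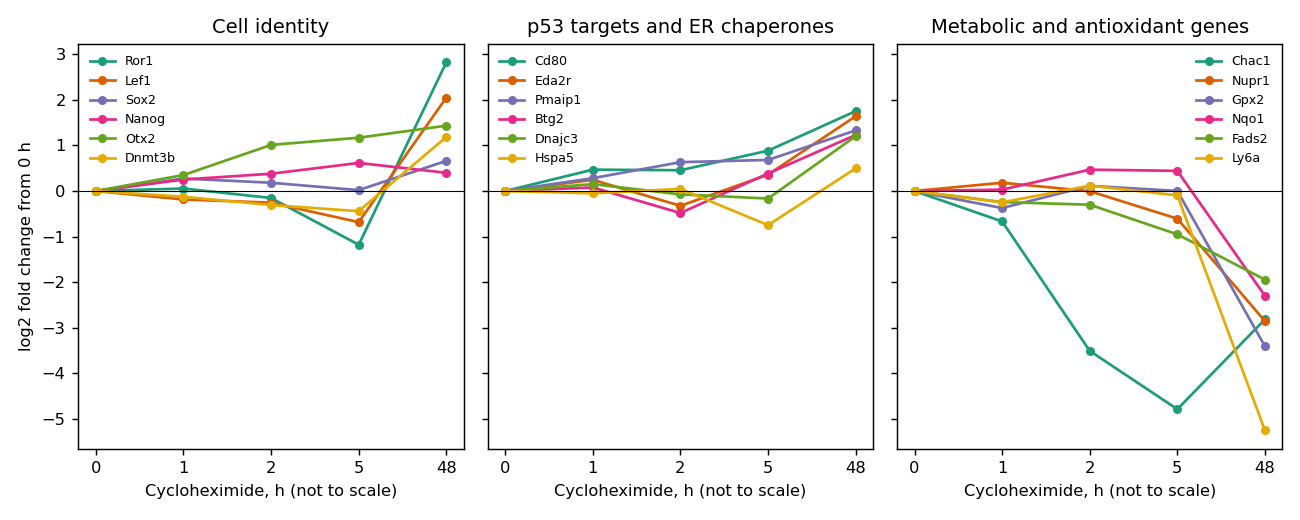
Fitted log2 fold change from 0 h (vertical axis, 0 at the start) of 18 CGR8 genes at 1, 2, 5 and 48 h of cycloheximide (horizontal axis, not to scale) in 3 panels; all points share the 3 libraries at 0 h. Ror1 and Lef1 lie below 0 at 5 h and above it at 48 h, Chac1 is lowest at 5 h, and Gpx2 and Ly6a passed the test against 0 h at 48 h and at no earlier time.

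The same treatment of NIH/3T3 fibroblasts, in a fit of all 30 libraries, served to show where the CGR8 change differed. The difference of the 48 h changes was called for 3849 of 17549 genes (21.9%), 1717 more positive in CGR8 and 2132 more negative. Ror1 changed by 2.83 in CGR8 and 0.38 in NIH/3T3, a difference of 2.46 ± 0.288 (SE; adjusted p = 4.98e-07, edgeR). Ly6a changed by -5.24 and -0.33, a difference of -4.91 ± 0.356 (SE; adjusted p = 1.20e-10, edgeR). Nupr1 changed by -2.84 and -0.52, a difference of -2.32 ± 0.303 (SE; adjusted p = 2.33e-06, edgeR). Chac1 changed by -2.81 and -1.08, a difference of -1.72 ± 0.356 (SE; adjusted p = 0.000709, edgeR). Lef1 changed by 2.06 and 0.68, a difference of 1.39 ± 0.234 (SE; adjusted p = 7.39e-05, edgeR). Dnajc3 changed by 1.21 and 0.49, a difference of 0.72 ± 0.110 (SE; adjusted p = 1.96e-05, edgeR). Fads2 changed by -1.93 and -0.93, a difference of -1.01 ± 0.200 (SE; adjusted p = 0.00047, edgeR). The difference for Cd80, -0.14 ± 0.388 (SE; adjusted p = 0.91, edgeR), did not pass the test. Gad1 and Gpx2 had 0 counts in all NIH/3T3 libraries at 0 and 48 h, and no difference is given for them.

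**Figure D5:**
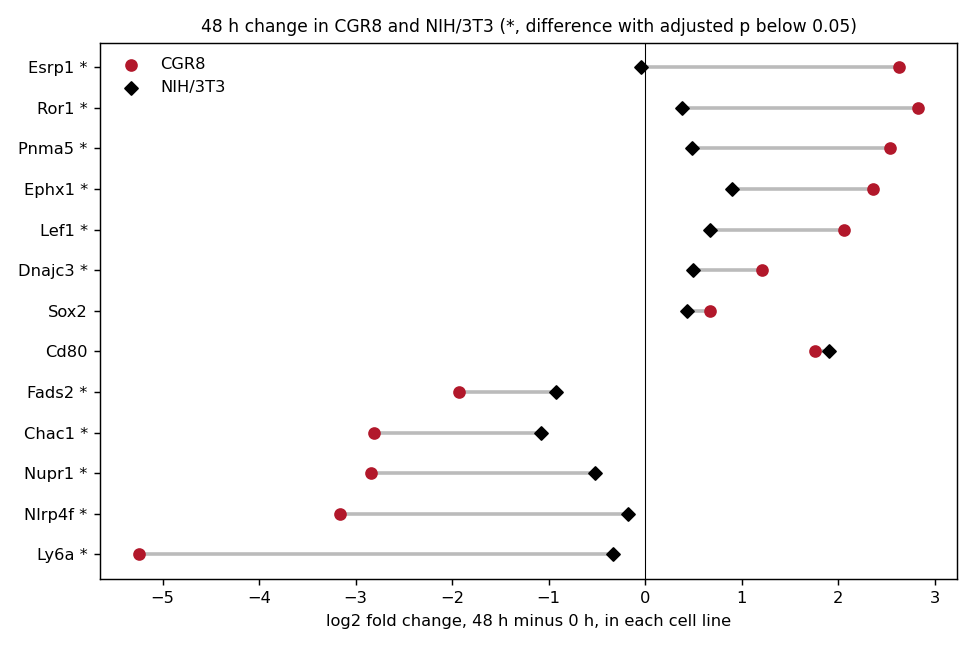
Fitted log2 fold change of 48 h against 0 h (horizontal axis) in CGR8 (red circles) and NIH/3T3 (black diamonds) for genes with more than 3 counts in every compared library (rows), joined by a grey line. Asterisks mark an adjusted p of the difference under 0.05; Ly6a, with -5.24 in CGR8 and -0.33 in NIH/3T3, has the longest line.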

How the data were processed

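RNA from 30 libraries was sequenced after a stranded mRNA ligation kit, per the labels' protocols. The authors deposited raw counts per gene, whole numbers for 57186 gene identifiers; STAR, DESeq2 and GRCm39 are named in the submitters' processing notes. The counting tool, its use of strand and the annotation release are not given in the sources used here. All 30 columns were used. Symbols, found for 51880 identifiers (90.7%), and exon overlaps come from GENCODE M21, and promoter windows from RefSeq on GRCm38.p6.

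In R 4.3.3, edgeR 4.0.16 fitted 1 model to the 15 CGR8 libraries (23.3 to 29.9 M counts in the 6 compared) with a coefficient per time. Genes were kept by filterByExpr (minimum count 10, minimum total 15), scaled by TMM and tested by the quasi-likelihood F test with Benjamini-Hochberg adjustment. Each SE was derived from the fold change and the F statistic of that test. The difference between lines was an interaction in a fit of all 30 libraries. Genes of few counts are the least precise. The CGR8 fit was run on simulated counts for 48 h against 0 h as a check of the code, and the fit of all 30 libraries was not.

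Genes to be named had to be called, to reach a group mean of 10 CPM and to have groups that do not overlap; predicted genes and pseudogenes were passed over. From these the 15 strongest rises and the 15 strongest falls were taken, and the 5 in each direction with the widest change in CPM, with up to 4 called members of each list at 5 CPM or more, all naive, stem cell, DNA methylation and p53 list members, and leading cell type markers. Others were chosen after their values were seen, and some results for single genes are not reported here. The comparison, the 59 gene lists and the tests were chosen with earlier results of these data known. Alternatives were RLE factors, library size alone, DESeq2 1.42.0, no filter, a mean of at least 5 CPM, the 6 libraries only, the replicate letter as a block, each library left out, and, added after seeing the data, voom with sample quality weights in limma 3.58.1. Where 2 annotated genes share exon sequence, their reads may not be told apart.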

Additional observations from a re-analysis of the deposited data

Results flagged for a closer look

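The genes listed here passed a test of the difference itself. It was either between the 48 h changes of the cell lines or between 48 h and 5 h in CGR8. Of all genes tested, 21.9% passed the former and 57.5% the latter. All values are log2 differences with an adjusted p under 0.05 in edgeR, and none was weighed for a cause. The 48 h change was more positive in CGR8 than in NIH/3T3 by 2.456 for Ror1, by 2.677 for Esrp1, by 2.053 for Pnma5, by 1.456 for Ephx1, by 1.385 for Lef1 and by 0.7201 for Dnajc3. Esrp1 rests on 7 to 12 counts per NIH/3T3 library. The difference was -4.912 for Ly6a, -2.988 for Nlrp4f, -2.322 for Nupr1, -1.724 for Chac1 and -1.008 for Fads2.

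Between 5 h and 48 h in CGR8, Ror1 differed by 4.001, Esrp1 by 2.818, Lef1 by 2.733, Gad1 by 2.146, Pnma5 by 2.06, Ephx1 by 2.058, Chac1 by 1.969, Dnajc3 by 1.368, Cd80 by 0.8677 and Sox2 by 0.6425, all higher at 48 h. At 5 h, Ror1 rests on 11 to 31 counts per library and Chac1 on 5 to 15. The difference of 48 h from 5 h was -5.159 for Ly6a, -3.667 for Nlrp4f, -3.409 for Gpx2, -2.248 for Nupr1 and -0.9937 for Fads2. The genes of both comparisons were picked for their 48 h change against 0 h, so their differences are not a sample of all genes. The CGR8 libraries at 48 h served that choice and both tests, which made a pass likelier. Those at 0 h also entered the line difference.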

How the results depend on the processing

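Of 264 results on single genes at 48 h against 0 h, 226 were called, and 187 of these kept their call under every alternative run; 39 lost it at least once, 11 others gained one, and 0 reversed. All 16 calls of 18 genes tested between 48 h and 5 h were kept, and of 12 called differences between the lines 11 were. Leaving out 1 library gave 3159 to 3764 called genes, and a fit of the 6 libraries only gave 5086. With voom and sample quality weights, 7063 genes were called at 48 h, 3305 higher and 3758 lower, and the difference between the lines gave 7622, 3500 more positive, 4122 more negative and 2901 of at least 2-fold. With a mean of at least 5 CPM, fewer genes were tested, and those called at 2-fold or more numbered 388 for 48 h against 0 h, 1588 for 48 h against 5 h and 898 for the difference between the lines. The share of called genes that were higher, 43.7%, ranged from 37.1% with library size alone to 49.1% with no filter. With the replicate letter as a block, 4400 genes were called, 4249 of them in common with the fit without it. Deviations from the group means correlated between same-letter libraries at 0.014 for A, 0.203 for B and 0.166 for C, and the 0 h replicate A correlated best with the 48 h replicate C, at 0.157, so the letters were not taken as pairs. Depth limits genes of a few counts, Ly6a at 48 h among them.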

Other observations

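RNA-processing genes gave more rises than falls. Of 26 SR proteins and hnRNPs, 7 were called higher and 1 lower (6 and 1 without the 0 h replicate B, 0 lower without the 0 h replicate C or the 48 h replicate A), with a median of 0.214, beside 12.2% and 15.6% of all genes. Clk1, a kinase that phosphorylates SR proteins, rose from 54.0 ± 16.3 to 115 ± 3.26 CPM, a change of 1.09 ± 0.270 (SE; adjusted p = 0.0068, edgeR). Hnrnph1, a splicing regulator, rose from 438 ± 89.6 to 676 ± 63.5 CPM. The member called lower was the cold-inducible Cirbp, at -0.56. Of 16 factors of nonsense-mediated decay, 6 were higher and 1 lower (5 and 0 without that library). Leaving out any other 1 library but the 0 h replicate C also gave 0 lower. The endonuclease gene Smg6 rose from 70.9 ± 1.69 to 115 ± 3.92 CPM, a change of 0.70 ± 0.116 (SE; adjusted p = 0.000324, edgeR), and Upf2, a core adaptor, rose from 53.8 ± 6.43 to 79.3 ± 3.78 CPM.

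Imprinted and germline genes gave calls in both directions. Of 21 imprinted genes, 6 were higher and 2 lower (5 and 1 without the 0 h replicate B, and 1 lower without the 48 h replicate B). The paternally expressed zinc finger gene Peg3 rose from 34.3 ± 2.93 to 98.7 ± 15.6 CPM, a change of 1.52 ± 0.249 (SE; adjusted p = 0.000283, edgeR), and the cell-cycle inhibitor gene Cdkn1c rose from 3.93 ± 1.12 to 8.65 ± 1.52 CPM. Of 17 germline genes, 5 were higher and 2 lower; 2 were higher without the 48 h replicate C, leaving out the 48 h replicate B gave 3, and 1 was lower without the 0 h replicate C or the 48 h replicate A or B. Tex11, of meiotic crossover formation, rose from 8.95 ± 0.590 to 16.2 ± 4.81 CPM, whereas Sycp3, of the synaptonemal complex, fell from 8.27 ± 1.90 to 2.22 ± 0.251 CPM and shares exon sequence with Chpt1. Of 33 immediate-early genes, 12 were lower and 4 higher (9 and 4 without that library). Jun, a subunit of AP-1, rose by 1.08, while Atf3 fell by 1.26 and the matricellular genes Ccn1 and Ccn2 by 0.73 and 1.03. Of 17 genes of FOXO and insulin signalling, 5 were higher, Foxo3 from 57.4 ± 0.700 to 89.3 ± 7.08 CPM and Foxo1 from 24.8 ± 1.40 to 37.1 ± 2.04 CPM among them, and 2 lower (4 and 1 without that library, and 1 lower without the 48 h replicate B or C). In mTORC1 signalling, 4 of 25 genes were higher and 6 lower (3 and 5), but 2 were higher without the 0 h replicate A or C or the 48 h replicate C. Sesn3, an inhibitor of mTORC1, rose from 26.9 ± 2.97 to 60.6 ± 5.83 CPM, a change of 1.17 ± 0.155 (SE; adjusted p = 4.71e-05, edgeR). Of 17 interferon genes, 4 were higher and 5 lower (4 and 4; 3 lower without the 48 h replicate C), the antiviral Oas1a from 37.4 ± 5.15 to 14.4 ± 1.91 CPM among the latter.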
